A study of Gallus gallus with 6 samples.

Results

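The magnum of laying hens held lower levels of 12 genes found by keywords for cilia, flagella and sperm than the magnum of non-laying hens. Fold changes lay between 3.65 and 12.3. In 17.6% of all genes tested, and in each of these 12, the laying hens lay below the non-laying hens without overlap. The genes were found by keyword among 540 genes, 409 of them with a name, that the study had selected on these same libraries by their difference between laying and non-laying hens. A gene entered where its description spoke of cilia, flagella, the axoneme, dynein, radial spokes, tektin or sperm, or where its name began with a stem such as CFAP, CCDC, DNAAF, RSPH, AK7 or MEIG1. This gave 13 genes of the 540, out of 19152 genes in the count table. The genes were therefore chosen by the very contrast in which they are described, and their differences between the groups are a description. Where the thresholds of a test are applied to them below, the count restates the choice and supports nothing.

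Motile cilia are hair-like extensions whose beating moves fluid and particles over an epithelium. Their core, the axoneme, is a ring of doublet microtubules around a central pair, and rows of dynein motors on the doublets make them slide while radial spokes and nexin links control the bend. A cell with many cilia first multiplies its centrioles, which become the basal bodies, and then switches on the axoneme genes, and sperm tails are built on much the same plan. In the hen, the surface epithelium of the magnum consists of ciliated cells and mucus-secreting cells, and tubular glands beneath it make the egg white proteins.

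The study asked which genes of the magnum change with egg white formation. The laying group was 3 Hy-Line white hens of 35 weeks of age, sampled 3 h post-ovulation, and the non-laying group was 3 Hy-Line white hens of 35 to 60 weeks of age from different flocks whose oviducts were atrophied, so that laying state, age, flock and regression of the tissue cannot be told apart. Each hen gave 1 mRNA library, and the spread between libraries is that between hens. In bulk tissue, fewer cells of a type and less RNA per cell cannot be told apart either.

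Estimated counts summed to between 18840068 and 25763750 per library. Levels within a gene are given as CPM, that is counts relative to library size, with each library's size corrected by edgeR's TMM factor, which sets the bulk of the genes equal between libraries. Levels between genes are given as the deposited RPKM, which also corrects for gene length. Non-laying hen 3 stood apart from the other libraries. The gene that took 49.4% to 53.6% of all counts in the laying hens took 1.33% in this hen. In non-laying hens 1 and 2 the same gene took 19.8% and 36.5%. The TMM factor of non-laying hen 3 was 2.94, against 0.445 to 1.72 in the other 5 libraries. Counts of genes that pass the thresholds are also given without this hen.

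The keyword rule was not the same as membership of the motile axoneme. Of the 13 genes, 7 belong to lists of axoneme parts compiled from general knowledge: DNAAF1, CCDC39, RSPH14, AK7, CFAP65, CFAP221 and SAXO2. EVC2 belongs to the list for the primary cilium, the single immotile cilium of many cell types. MEIG1, ODF2L and CCDC181 are known from sperm or centrioles. CCDC89 entered by its name alone, as did CCDC181, CCDC39 and AK7. The remaining gene, SMOX, encodes spermine oxidase, an enzyme of polyamine breakdown, and entered because its description contains the letters of sperm within spermine. It is no gene of the cilium and is kept apart below.

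Factors that build the dynein arms were represented by 1 gene, and the spacing of the arms by another. DNAAF1 (ENSGALG00000003258), which in humans is needed to assemble dynein arms in the cytoplasm before they enter the cilium, had 2.96, 4.50 and 4.95 CPM in laying hens 1, 2 and 3, against 12.5, 16.7 and 30.1 CPM in non-laying hens 1, 2 and 3. Its highest laying hen was below its lowest non-laying hen, with a log2 fold change of -2.25 (SE 0.38). CCDC39 (ENSGALG00000021855) forms, with its partner CCDC40, the ruler that sets the repeat along the doublet at which dynein arms and spokes attach. It had 2.96, 5.93 and 9.69 CPM in the laying hens, against 18.1, 22.1 and 33.0 CPM in the non-laying hens. The 3 laying hens differed among themselves by more than the non-laying hens did in proportion, and the log2 fold change was -1.97 (SE 0.43). DNAAF1 lies on chromosome 11 from 2540321 to 2553499 and CCDC39 on chromosome 9 from 17221332 to 17237888 of Galgal 5.0.

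RSPH14 (ENSGALG00000006712), named as a homologue of a radial spoke head protein, had the widest gap between the groups. It had 0.45, 0.62 and 0.74 CPM in the laying hens, from 5, 10 and 11 counts, against 3.91, 3.37 and 5.27 CPM in the non-laying hens, from 153, 100 and 292 counts. The lowest non-laying hen was 4.58-fold above the highest laying hen, and the hens of each group were close together. The log2 fold change was -2.77 (SE 0.42), or 6.84-fold lower in laying hens. The gene spans 69.7 kb of chromosome 15 (8737729 to 8807460), the longest span of the 13 genes.

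Genes assigned to the central pair apparatus were 3. CFAP65 (ENSGALG00000034212), a protein that human and mouse sperm need for their flagellum, had the highest CPM of the 12 genes, with 10.3, 14.3 and 14.2 CPM in the laying hens, against 43.2, 43.7 and 97.8 CPM in the non-laying hens. Non-laying hens 1 and 2 were almost equal and hen 3 stood well above them. The log2 fold change was -2.25 (SE 0.37). AK7 (ENSGALG00000011093), an adenylate kinase of motile cilia that interconverts adenine nucleotides, had 3.85, 11.1 and 7.89 CPM in the laying hens, against 19.2, 26.7 and 45.9 CPM in the non-laying hens. Its gap was the narrowest of the 12, since the lowest non-laying hen was 1.74-fold above the highest laying hen, and its log2 fold change was -2.001 (SE 0.44). CFAP221 (ENSGALG00000012100), known from the central pair in Chlamydomonas and from motile cilia in the mouse, had 1.43, 2.44 and 1.80 CPM in the laying hens, against 4.91, 6.03 and 10.9 CPM in the non-laying hens. Here too non-laying hen 3 was the highest of all, and the log2 fold change was -1.93 (SE 0.41). CFAP65 (22451535 to 22466004) and CFAP221 (28481649 to 28499392) both lie on chromosome 7, and AK7 on chromosome 5 (46536991 to 46555522).

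SAXO2 (ENSGALG00000006119), a stabilizer of axonemal microtubules, was the most abundant of the 12 genes per length. Its deposited RPKM was 1.93, 4.80 and 3.33 in the laying hens, against 31.7, 20.5 and 102.9 in the non-laying hens. In non-laying hen 3 this placed SAXO2 above 93.9% of all genes tested, and in laying hen 1 above 44.2%. On the CPM scale the gene had 6.10, 10.9 and 7.82 in the laying hens, against 25.9, 24.25 and 49.2 in the non-laying hens, with a log2 fold change of -1.999 (SE 0.35). It lies on chromosome 10 from 11660424 to 11665477.

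The strongest reductions of the 12 were in MEIG1 and ODF2L, both of which had few counts in the laying hens. MEIG1 (ENSGALG00000000451), which mouse sperm need to form their tail, had 0, 4 and 5 counts in the laying hens, against 59, 71 and 214 counts in the non-laying hens. The 0 counts of laying hen 1 allow up to 3 counts, or 0.269 CPM, whereas the non-laying hens had 1.51, 2.39 and 3.86 CPM. The fitted log2 fold change was -3.62 (SE 0.77), or 12.3-fold lower in laying hens. ODF2L (ENSGALG00000006804), a relative of the outer dense fibre and centriole protein ODF2, had 1, 5 and 12 counts in the laying hens, against 77, 102 and 407 counts in the non-laying hens. In CPM this was 0.090, 0.31 and 0.80 in the laying hens, against 1.97, 3.43 and 7.35 in the non-laying hens, with a wide spread inside both groups, and the log2 fold change was -3.35 (SE 0.75), or 10.2-fold lower. Without laying hen 3 the reduction of ODF2L was 19.4-fold and without non-laying hen 3 it was 6.36-fold. With so few counts in the laying hens these 2 fold changes have the largest errors of the 12. MEIG1 lies on chromosome 1 (7470107 to 7475632) and ODF2L on chromosome 8 (16057748 to 16074923).

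CCDC181 and CCDC89 are coiled-coil proteins, and CCDC181 binds microtubules in mouse sperm. CCDC181 (ENSGALG00000015221) had 1.97, 2.31 and 1.40 CPM in the laying hens, against 5.52, 6.36 and 8.90 CPM in the non-laying hens. This was the smallest reduction of the 12, 3.65-fold (log2 fold change -1.87, SE 0.35), and the gene nearest to the fold threshold of 3 by which the genes had been selected. CCDC89 (ENSGALG00000037520) had 0.81, 0.69 and 1.14 CPM in the laying hens, against 3.55, 2.12 and 6.70 CPM in the non-laying hens, where hen 2 was the lowest and hen 3 the highest (log2 fold change -2.23, SE 0.52). Genes just outside the threshold carry no name here and are not described. Both genes lie on chromosome 1, CCDC181 from 83669942 to 83676311 and CCDC89 from 190326655 to 190327658.

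EVC2 (ENSGALG00000015029), which with EVC forms a complex at the base of primary cilia that takes part in Hedgehog signalling, had 0.63, 1.87 and 1.40 CPM in the laying hens, against 4.35, 4.44 and 8.85 CPM in the non-laying hens. Non-laying hen 3 was highest and laying hen 1 lowest, as in the axoneme genes described above but not in all of those described below. The log2 fold change of EVC2 was -2.15 (SE 0.49). Per length EVC2 was the least abundant of the 12 in non-laying hens 2 and 3, and its RPKM was 0.071, 0.29 and 0.21 in the laying hens, against 1.89, 1.34 and 6.58 in the non-laying hens. It spans 62.9 kb of chromosome 4 (79678051 to 79740966).

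**Figure D1:**
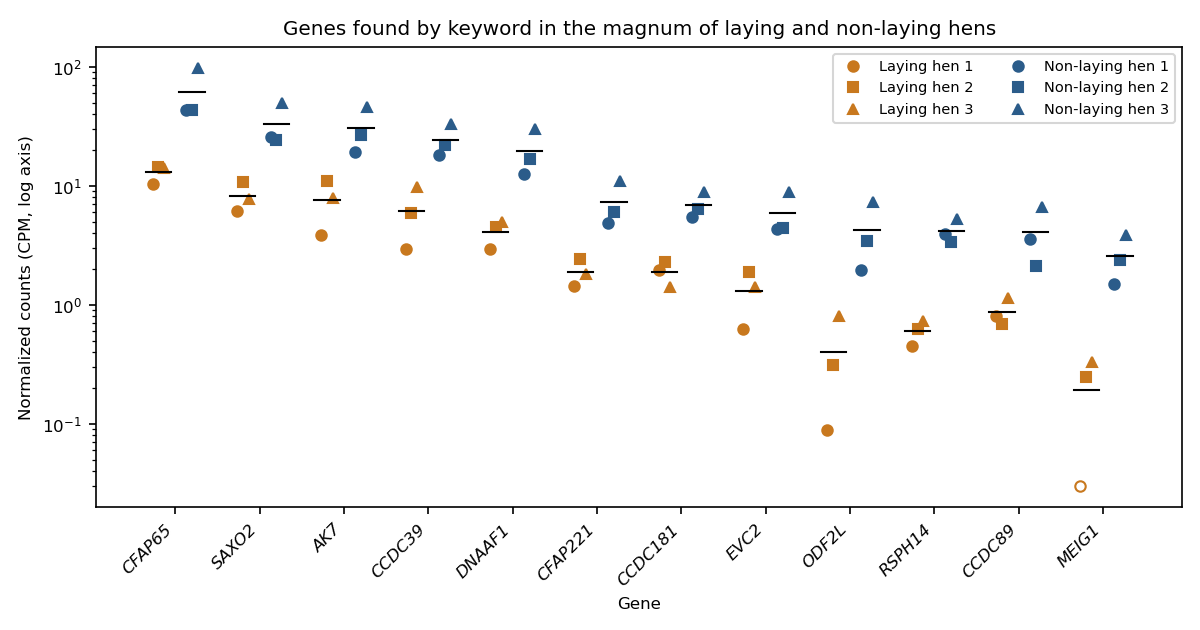
TMM-normalized counts (CPM, log axis) of the 12 genes in each hen, laying hens in orange left of non-laying hens in blue, with marker shape giving the hen number and a black line the group mean. In every gene the 3 laying hens lie below the 3 non-laying hens, non-laying hen 3 is the highest, and the open circle at the bottom marks MEIG1 at 0 counts in laying hen 1.

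Together the 12 genes took 0.00140%, 0.00343% and 0.00313% of all counts in laying hens 1, 2 and 3, against 0.0249%, 0.0193% and 0.0905% in non-laying hens 1, 2 and 3. For the smallest share, which rests on 352 counts, the 95% interval (Wilson) was 0.00126% to 0.00156%, and these intervals cover counting error only. No interval of a laying hen overlapped that of a non-laying hen, but the genes had been selected on this contrast. The shares also depend on the most abundant gene, which took more of all counts in every laying hen than in any non-laying hen. Summed over the 12 genes, the level was 46.3 ± 12.9 CPM in laying hens and 204.7 ± 89.8 CPM in non-laying hens (SD, n = 3 each). Non-laying hens 1 and 2 had 144.6 and 161.6 CPM and non-laying hen 3 had 307.9 CPM, so that the mean and its SD rest on this hen.

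In edgeR's quasi-likelihood test over 12499 genes, all 12 differed by more than 3-fold with an adjusted p (Benjamini-Hochberg) under 0.05, and are said to pass, where 3.7% of all genes passed as lower and 1.28% as higher in laying hens. Of the 526 genes tested from the study's own selection, 89.5% passed in either direction, so the count of 12 restates how the genes were chosen. The groups did not overlap, with laying hens below, in 17.6% of all genes tested. The same held in 100% of the 463 genes that passed as lower, these 12 among them. The median log2 fold change of the 12 was -2.19, beside 0.00 over all genes. Without laying hen 1 or without laying hen 2 none of the 12 passed, with an adjusted p that lay between 0.0687 and 0.152, although all 12 kept their direction, and of all genes 8 and 9 then passed as lower. Without laying hen 3, 7 of the 12 passed, without non-laying hen 1, 8, without non-laying hen 2, 12, and without non-laying hen 3, 6. Of all genes 319 (2.44%), 227 (1.79%), 458 (3.54%) and 382 (3.05%) passed as lower, in the same order. Leaving out non-laying hen 3 also brought the median log2 fold change to -1.70, with single genes between -3.18 and -1.51. These losses hold for the single genes above as well. DESeq2 on all hens passed all 12, which restates the study's own selection by DESeq2 at the same thresholds. DESeq2 was not run with a hen left out.

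Relative to one another, 10 of the 12 genes had proportions that overlapped between the groups. As a share of the summed RPKM of the 12 genes, SAXO2 made up 28.9 ± 3.69% in laying hens and 25.9 ± 2.24% in non-laying hens, AK7 17.1 ± 4.01% in laying hens and 15.98 ± 1.75% in non-laying hens, and CFAP65 13.3 ± 1.73% in laying hens and 13.6 ± 1.20% in non-laying hens (SD, n = 3 each). AK7 varied within a group, from 13.2% in laying hen 1 to 21.2% in laying hen 2. ODF2L made up 0.915 ± 0.777% in laying hens and 2.22 ± 0.623% in non-laying hens and overlapped. The exceptions were MEIG1 and RSPH14, whose proportions in the laying hens were all below those in the non-laying hens. MEIG1 made up 1.27 ± 1.16% in laying hens, from 0, 4 and 5 counts, and 4.33 ± 0.754% in non-laying hens. RSPH14 made up 2.47 ± 0.203% in laying hens and 3.62 ± 0.773% in non-laying hens. The RPKM of RSPH14, DNAAF1 and ODF2L had been computed with a gene length shorter than the annotated exon length, and for RSPH14 this length ranged from 986 to 1438 bases between libraries, against 1636 bases annotated, so its proportion also depends on the length used.

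**Figure D2:**
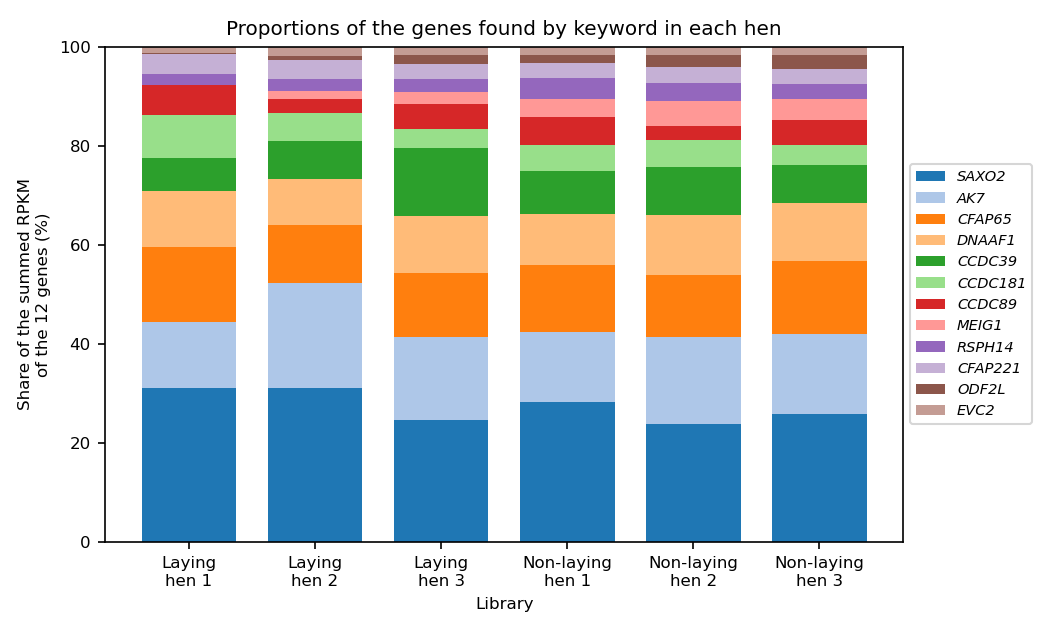
Share of each gene in the summed RPKM of the 12 genes (%), stacked to 100 for each hen, laying hens left of non-laying hens. SAXO2 makes up the largest share in every hen, between 23.8% and 31.1%, while MEIG1 and RSPH14 take smaller shares in the laying hens.

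Within the non-laying group the 12 genes had the same highest hen. Non-laying hen 3 had the highest CPM of the 3 non-laying hens in all 12 genes, whereas it was highest in 42.7% of all genes tested and in 48.4% of the 463 genes that passed as lower in laying hens. Its CPM was 1.45-fold to 2.72-fold the mean of non-laying hens 1 and 2. The median of this ratio was 1.996 over the 12 genes and 1.01 over all genes. In RPKM, without TMM scaling, non-laying hen 3 was the highest in all 12 genes too. It was also the highest in 85.9% of all genes and in 66.5% of the 463. The share of genes with this hen highest thus set the 12 apart less on that scale. The smallest ratio was that of RSPH14 and the largest that of ODF2L. In RPKM the ratio had a median of 4.13 over the 12 genes and of 2.03 over all genes. Among the laying hens, hen 1 was the lowest in CPM in 10 of the 12 genes. On that scale it was the lowest in 34.0% of all genes and in 43.0% of the 463. In RPKM it was the lowest in 11 of the 12, against 66.6% of all genes and 63.3% of the 463. The exceptions in CPM were CCDC181, lowest in laying hen 3, and CCDC89, lowest in laying hen 2. These orders are a description of 6 libraries, and the genes share each library's RNA and scaling.

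The other axoneme genes that could be read behaved alike. Of 136 gene symbols on 7 lists of axoneme parts, 16 (11.8%) carried an identifier here, because names are paired with identifiers only for genes the study had selected. These 16 were 7 of the genes above and 9 more, and all 16 passed as lower in laying hens in edgeR. Of the 526 tested genes of the study's selection, from which alone these symbols could be read, 66.9% passed as lower and 22.6% as higher. Since all had been selected for a difference, this says nothing of the remaining symbols, among them HYDIN, DNAH5, DNAH9, DNAI1, DNAI2, TEKT1 and TEKT2, which are not analysed here. Without laying hen 1 or 2 none of the 16 passed, where 8 and 9 of all genes passed as lower. Without non-laying hen 3, 12 of the 16 passed, beside 382 of all genes. The log2 fold changes of the 9 lay between -2.92 and -1.95, with a median of -2.21.

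Inner dynein arm genes were among the 9. WDR63 (DNAI3), an intermediate chain of inner arm dynein, had 2.60, 4.37 and 4.41 CPM in the laying hens, against 9.385, 14.0 and 20.7 CPM in the non-laying hens. WDR78 (DNAI4), a second such chain, had 1.88, 2.997 and 2.61 CPM in the laying hens, against 7.93, 7.21 and 17.3 CPM in the non-laying hens. Both had their highest level in non-laying hen 3, as did AK9, another adenylate kinase. For the nexin-dynein regulatory complex, which links neighbouring doublets, FBXL13 (DRC6) and IQCA1 (DRC11) had log2 fold changes of -2.26 (SE 0.42) and -2.21 (SE 0.41). MAATS1 (CFAP91), at the base of the radial spoke, had 0.45, 0.81 and 1.67 CPM in the laying hens, against 4.04, 4.82 and 6.37 CPM in the non-laying hens, and its reduction of 5.11-fold became 7.80-fold without laying hen 3. C4orf47 (CFAP96), listed with the proteins inside the doublet, had the largest reduction of the 9, with 0.72, 0.69 and 0.67 CPM in the laying hens, against 4.07, 5.52 and 6.19 CPM in the non-laying hens. EFHC2, of the same list, and ARMC2, known from the sperm flagellum of humans and mice, had log2 fold changes of -2.53 (SE 0.46) and -2.03 (SE 0.36). All 9 were highest in non-laying hen 3. No gene of the outer dynein arm list (15 symbols) or of intraflagellar transport (31 symbols) carried an identifier, so these parts of the cilium were not read.

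Some genes that act before the axoneme is built were among the study's selection. Of 26 symbols for regulators of multiciliated cells and for centriole multiplication, 6 carried an identifier and all 6 passed as lower, as did 66.9% of the tested genes of that selection. GMNC, a geminin relative at the head of the multiciliated cell programme, had 1.61, 3.06 and 1.002 CPM in the laying hens, against 5.73, 5.86 and 13.8 CPM in the non-laying hens. MYB, a transcription factor active in early multiciliated cells and also in other dividing progenitors, had 2.15, 2.93 and 2.94 CPM in the laying hens, against 7.75, 7.34 and 17.2 CPM in the non-laying hens. DEUP1, which builds the deuterosome on which centrioles multiply in ciliating cells, had 0.45, 1.06 and 1.60 CPM in the laying hens, against 2.81, 5.56 and 8.38 CPM in the non-laying hens. In all 3 the groups did not overlap, as in 17.6% of all genes tested and in 100% of the 463 that passed as lower. Non-laying hen 3 was the highest in all 3, as in 42.7% of all genes in CPM and 85.9% in RPKM. PLK4, CEP135 and HYLS1 serve centrioles in dividing cells too, and PLK4, the kinase that starts centriole duplication, was 11.8-fold lower in laying hens (log2 fold change -3.56, SE 0.29). HYLS1 was the exception to the order of hens in CPM, with 4.48, 7.34 and 7.22 CPM in non-laying hens 1, 2 and 3. In RPKM it was highest in non-laying hen 3, with 5.86, 6.45 and 15.5 in the same order. Without laying hen 1 or 2, 1 of the 6 passed, where 8 and 9 of all genes passed as lower. Without laying hen 3, 3 of the 6 passed, beside 319 of all genes. Without non-laying hen 1 or non-laying hen 2, 4 of the 6 passed, beside 227 and 458 of all genes. Without non-laying hen 3, 2 of the 6 passed, beside 382 of all genes. FOXJ1, MCIDAS, TP73, RFX2, RFX3 and CCNO are not analysed here.

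**Figure D3:**
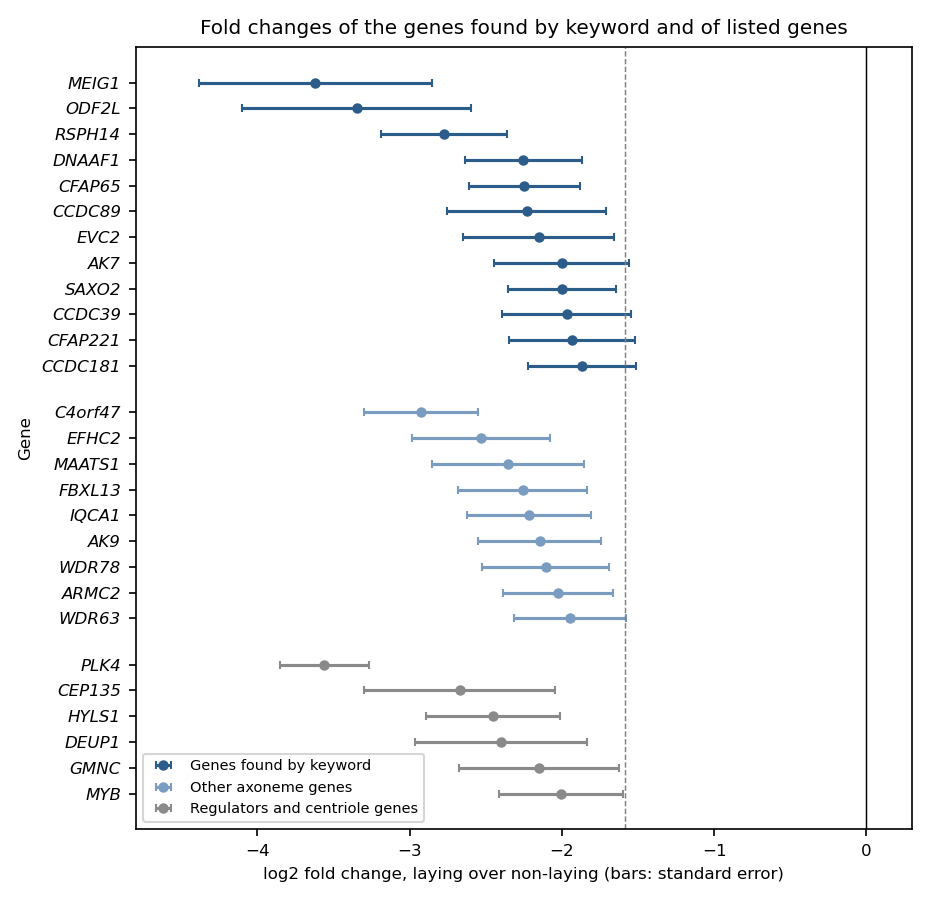
Log2 fold change, laying over non-laying, of the 12 genes found by keyword, the 9 other axoneme genes and the 6 regulators and centriole genes. Bars are the standard error computed back from the edgeR test, and the dashed line is at a 3-fold reduction. All genes shown lie left of the dashed line, MEIG1 farthest, and all had been selected for their difference in these libraries.

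Markers of dividing cells that had been selected were lower in the laying hens too, but with another order of hens in CPM. Of the list of 20 symbols, 15 carried an identifier, all from the study's selection, and 14 passed as lower. In that selection 66.9% of the tested genes passed as lower, and of all genes 3.7%. The summed level of the 15 was 37.8 to 46.6 CPM in the laying hens, against 178.6 to 635.9 CPM in the non-laying hens. Without laying hen 1 or 2 none of the 15 passed, where 8 and 9 of all genes passed as lower. Without non-laying hen 3 all 15 passed, beside 382 of all genes. In all 15 the CPM of non-laying hen 3 was the lowest of the non-laying hens, with a median of 0.305 of the mean of hens 1 and 2, whereas it was the highest in all 12 genes found by keyword. Over the 12499 genes tested its CPM was the lowest in 5170, and among the 463 that passed as lower in 202. TOP2A, a topoisomerase of dividing cells, had 2.60, 1.37 and 3.61 CPM in the laying hens, against 84.0, 115.6 and 22.1 CPM in the non-laying hens. In RPKM non-laying hen 3 was the lowest in 9 of the 15 genes, and it was the highest in 1 of the 15. On that scale it was the lowest in 704 of all genes tested and in 95 of the 463. Of 12 stromal symbols 4 carried an identifier, COL3A1, COL5A1, LUM and FBLN1, with a summed level of 297.5 to 324.2 CPM in the laying hens, against 1180 to 2204 CPM in the non-laying hens, and non-laying hen 3 was the highest in 1 of the 4 in CPM and in 3 of the 4 in RPKM. For blood and immune cells PTPRC alone of 13 symbols carried an identifier, with 3.68, 5.12 and 5.75 CPM in the laying hens, against 12.1, 14.1 and 34.1 CPM in the non-laying hens. PTPRC thus had its highest level in non-laying hen 3, as the 12 genes had.

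Few markers of secretion and of epithelium could be read. Of 10 gland products 2 carried an identifier. AVD, avidin of the egg white, had 2000, 1610 and 838.2 CPM in the laying hens, against 2.38, 2.26 and 3.03 CPM in the non-laying hens, and ORM1 (orosomucoid) did not pass (adjusted p = 0.102 in edgeR), with 8257 to 25711 CPM in the laying hens against 765.4 to 5193 CPM in the non-laying hens. CGN, cingulin of epithelial tight junctions, was the 1 epithelial symbol of 17 with an identifier and had 164.8 to 401.3 CPM in the laying hens, against 31.0 to 58.7 CPM in the non-laying hens. No smooth muscle or endothelial symbol carried one, and of 13 symbols set as ciliated cell markers CCDC39 alone did. The part that the mix of cells had in the lower level of the 12 genes was not tested.

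**Figure D4:**
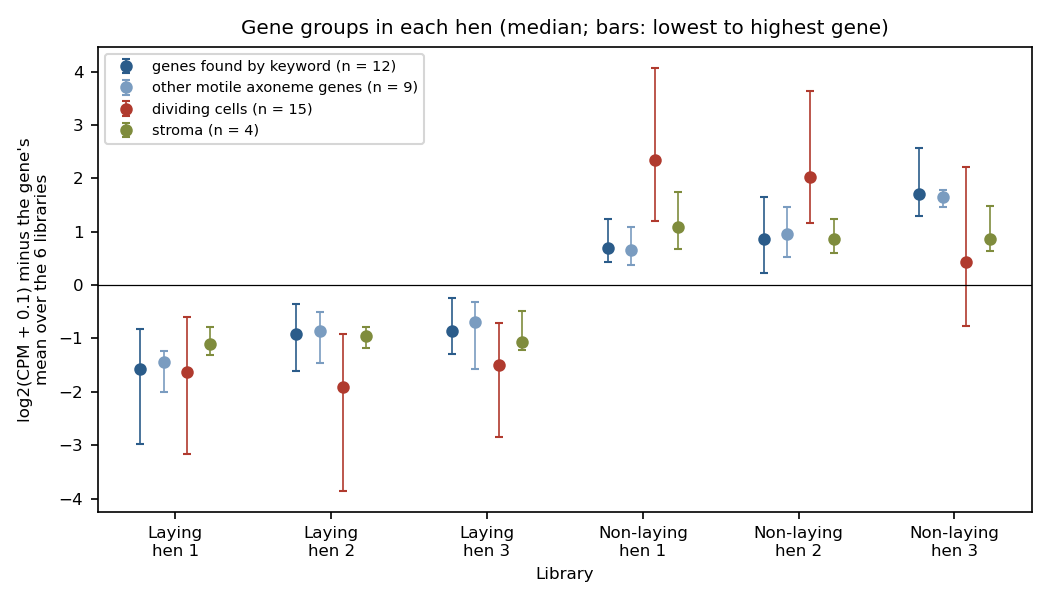
Levels of 4 gene groups in each hen as log2(CPM + 0.1) minus the gene's mean over the 6 libraries, with the group median as a point and bars from the lowest to the highest gene, laying hens left of non-laying hens. The 12 genes found by keyword and the 9 other axoneme genes peak in non-laying hen 3, where the 15 genes of dividing cells are at their lowest among non-laying hens.

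PKHD1, fibrocystin of the primary cilium, was the only gene besides EVC2 with an identifier among 41 symbols of the primary cilium and transition zone. It had 3.23, 1.44 and 0.47 CPM in the laying hens, against 16.2, 12.9 and 16.1 CPM in the non-laying hens, with a log2 fold change of -3.18 (SE 0.56), or 9.04-fold lower, which became 15.6-fold without laying hen 1. Unlike EVC2, PKHD1 was not highest in non-laying hen 3 in CPM, though non-laying hens 1 and 3 were almost equal. In RPKM both genes were highest in non-laying hen 3. PKHD1 was not lowest in laying hen 1 on either scale. Both passed as lower, as did 3.7% of all genes and 66.9% of the tested genes of the study's selection. Only from that selection could the 2 be read. Without laying hen 1 or 2 neither passed, where 8 and 9 of all genes passed as lower. PKHD1 alone passed without laying hen 3, non-laying hen 1 or non-laying hen 3, beside 319, 227 and 382 of all genes.

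SMOX (ENSGALG00000015977), on chromosome 4 (88971253 to 89015690), went against the other 12. It had 72.3, 67.3 and 71.04 CPM in the laying hens, against 21.8, 25.8 and 14.6 CPM in the non-laying hens, a mean of 70.2 ± 2.61 CPM in laying hens and 20.7 ± 5.66 CPM in non-laying hens (SD, n = 3 each). SMOX too had been selected for its difference in these libraries, and its log2 fold change was 1.76 (SE 0.25). The difference depended on the scaling, because its RPKM of 18.6 ± 2.79 in laying hens and 17.8 ± 2.94 in non-laying hens overlapped. With total counts in place of TMM its log2 fold change was 0.07. Scaling to total counts moves the median of all genes by -1.80, and relative to that median the 12 genes had a median log2 fold change of -2.33.

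The 13 genes were spread over 9 chromosomes, and none lay next to another in a cluster. CFAP65 had the nearest neighbour among the 540 selected genes, TUBA4B at 127 kb, which had the opposite direction with a log2 fold change of 2.73. WDR63 lay 338 kb from ODF2L and was lower in laying hens as well. All 13 genes had whole-number counts in every library, to within 1e-06 of a count, whereas a library as a whole had 5.84% to 8.69% of fractional values, so the counts of these genes show no sign of reads divided between genes.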

How the data were processed

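RNA from the magnum of 3 laying and 3 non-laying hens was sequenced, with 1 library per hen. The authors aligned the cleaned reads to Galgal 5.0 and deposited estimated counts per gene of Ensembl release 94 from Array Studio version 10, not normalized. The RPKM values were computed and deposited by the authors. Their table of 540 genes also holds fold changes, p-values and group means, which were not used. Gene names, coordinates and exon lengths come from that table or from its supplementary form, so only genes already selected have names.

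Estimated counts were rounded, filtered with filterByExpr (12499 genes left) and compared, laying over non-laying, with TMM scaling and edgeR's two-sided quasi-likelihood test (edgeR 4.0.16, R 4.3.3), with no covariate and with Benjamini-Hochberg adjustment over all genes tested. Thresholds were a fold change over 3 and an adjusted p under 0.05. Each standard error (SE) was computed back from this test, as the absolute log2 fold change divided by the square root of its F statistic. A gene at 3 counts had 0.0542 to 0.269 CPM, depending on the library. Intervals are 95% Wilson intervals. The code was tested on simulated data without the 20 most abundant genes, so that test did not cover their uneven shares between libraries.

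The members and lists were chosen with earlier results of these data known. The genes named are all members, a set of ciliated cell genes, and in each list those past both thresholds, at most the 5 of lowest p, with the 2 of highest CPM. From the lists of dividing cells and others, only genes that a result turns on are printed. Other settings tried were edgeR with the size factors of DESeq2 or with total counts, TMM without the 20 most abundant genes, DESeq2 1.42.0, 2 other filters, limma 3.58.1 on log2(RPKM + 1) and log2(RPKM + 0.1), no fold threshold, the replicate number as a block, and each hen left out. Summaries and figures were made in Python 3.11.15 with pandas 2.3.3 and matplotlib 3.10.9. A planned search of promoters was not run.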

Additional observations from a re-analysis of the deposited data

How the results depend on the processing

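All 12 genes found by keyword were lower in laying hens under each of the 15 alternatives, and all 12 passed under DESeq2's size factors, total counts, TMM without the 20 most abundant genes, both filters, DESeq2 and both limma fits. Adjusted p lay between 0.0127 and 0.0401 with TMM. The number of all genes lower in laying hens, 463, became 7849 with total counts, 715 with DESeq2, 3817 and 6996 with limma on log2 RPKM plus 1 and plus 0.1, and 8 to 458 with a hen left out. The number higher, 160, became 47, 294, 28 and 44 in the same order, 338 without a fold threshold, and 7 to 227 with a hen left out. The median log2 fold change of the 12 genes, -2.19, became -4.13 with total counts and -2.61 and -3.68 with limma, where the median of all genes was -1.80, -1.35 and -1.67, and -2.35 to -1.70 with a hen left out. That of the 16 axoneme genes, -2.18, became -4.11 with total counts, -3.70 with limma and 0.1 added, and -2.34 to -1.76 with a hen left out. With a hen left out, 0 to 12 of the 12 genes, 0 to 15 of the 16 axoneme genes and 0 to 2 of the 2 primary cilium genes passed, the lowest without laying hen 1 or 2, and the cause was not tested. The share of counts of the 16 genes, lower by 0.0550 percentage points in laying hens (0.00348% against 0.0585%), was lower by 0.0261 to 0.0712 points with a hen left out. The mean share in non-laying hens was 16.8-fold that in laying hens, and 17.8-fold as a share of summed RPKM. Without the 20 most abundant genes it was 5.60-fold (0.0806% in non-laying hens against 0.0144% in laying hens).

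With the replicate number as a block, 8 of the 12 genes, 13 of the 16, 1 of the 2 primary cilium genes and 274 of all genes passed as lower. The labels number the hens and state no pairing. Deviations of same-numbered hens correlated at 0.179, -0.0653 and 0.0260, and hens numbered 1 and 3, but not 2, correlated best with their own number. With 3 hens per group these values cannot decide whether the numbers pair the hens. Genes with few counts limit the precision, above all MEIG1 and ODF2L in laying hens.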
